A study of Mus musculus with 6 samples.

Results

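The uptake of debris, modified lipoproteins and dying cells was followed here through 10 genes read in bone marrow stromal cell (BMSC) cultures with and without retinoic acid (RA). They are the scavenger receptors Msr1, Marco, Cd36, Cd163 and Stab1, the dead-cell receptors Mertk, Axl, Timd4 and Trem2, and the bridging ligand Gas6. They were chosen by name and not by a measured threshold, and all 10 were among the 25722 genes listed in the count tables. Of these 10, 9 had enough counts to be tested, against 13842 of all listed genes, and Timd4 was the one that had not.

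The cultures were wild-type adherent cells from the tibia and femur marrow of C57BL/6 mice, kept at early passage in low-glucose DMEM with serum and a ROCK inhibitor under low oxygen. There were 3 control libraries, from cells given the solvent DMSO, and 3 RA libraries, from cells given 1 μM all-trans RA for 48 h according to the labels, and no cytokine was added to either. The study's methods give a lower concentration and a shorter time, and the labels speak of 2 biological replicates, so that it is unsure whether the 3 libraries of a group are 3 separate cultures. The p-values below measure the spread between these libraries, which may be partly technical. The age and sex of the mice were not given in the sources used here.

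Scavenger receptors are cell-surface proteins of several unrelated families that bind negatively charged ligands such as oxidized lipoproteins, bacterial surfaces and altered self proteins, and carry them into the cell. Efferocytosis is the engulfment of dying cells, which show phosphatidylserine on their outer membrane. Some receptors, such as Timd4, bind this lipid directly, while the TAM receptor tyrosine kinases (Tyro3, Axl and Mertk) reach it through the soluble ligands Gas6 and protein S. In bone marrow these genes are best known from macrophages, although stromal cells also make Axl and Gas6.

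The libraries held between 14737636 and 18511905 counts, and levels are given as CPM (reads of a gene set against all reads of its library) after TMM scaling. Cyp26b1, the RA-degrading enzyme whose gene is a direct RA target, stood at 5.20 ± 0.67 CPM (SD, n = 3) in control and 107 ± 18.4 CPM in RA cultures, with every RA library above every control (edgeR log2 fold change 4.35, adjusted p = 0.00207). That call was lost when control 1 was left out (adjusted p = 0.0548). The libraries parted in a way that the labels do not explain: control 2, RA 1 and RA 2 (set 1) lay apart from control 1, control 3 and RA 3 (set 2) on the first principal component, which held 57.2% of the variance. Set 1 thus holds a single control and set 2 a single RA library, and 47.7% of the tested genes had set levels that did not overlap. For this reason the difference between RA and control is given for each tested member also within each set and with the set as a covariate.

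The cultures carried both macrophage and stromal transcripts. Ptprc, which all white blood cells carry, and the macrophage markers Csf1r and Adgre1 stood at 617 ± 127, 1115 ± 176 and 5759 ± 660 CPM in control, and all 12 macrophage markers were detected in every library with a summed level between 20110 and 22240 CPM. The 13 mesenchymal stromal markers summed to between 1695 and 4447 CPM, with Pdgfra at 11.4 ± 5.62, Pdgfrb at 82.8 ± 37.1 and Col1a1 at 1053 ± 516 CPM in control, and the stem cell markers Thy1 and Nt5e fell below the filter, Thy1 with 0 counts in RA 3. In every library the macrophage sum was above the stromal sum, although the labels name the cells mesenchymal stem cells of the marrow. Endothelial, granulocyte, dendritic, lymphoid, and erythroid and megakaryocyte markers summed to at most 46.3 CPM in any library, a value of the last list that was almost wholly the platelet gene Pf4 (45.6 CPM in RA 1), while osteoclast markers summed to between 89.4 and 359 CPM and adipocyte markers to between 1117 and 1564 CPM. The adipocyte sum was almost wholly Lpl (1113 to 1558 CPM), which macrophages also express, with Adipoq, Plin1 and Cidec at no more than 0.546 CPM. The osteoclast sum was mostly Mmp9 (52.3 to 326 CPM). In the main fit edgeR called 0 of the macrophage, stromal and osteoclast markers. With the set as a covariate it called the stromal markers Lepr (higher, log2 fold change 3.58, adjusted p = 0.00644) and Ly6a (lower, -0.91, adjusted p = 0.0152) and the osteoclast marker Mmp9 (higher, 0.88, adjusted p = 0.0167), and DESeq2 called Lepr and Ly6a in the same directions. The other 3 tested osteoclast markers had negative pooled values, Acp5 of -0.39, Ctsk of -0.36 and Ocstamp of -0.99. These 6 genes were named after their values were seen. In such bulk RNA, fewer cells of a type and less RNA per cell cannot be told apart, and this holds for every value below.

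The members covered a wide range of levels. Compared per kilobase of exon, Marco was by far the highest with 1053 ± 81.6 CPM per kilobase in control, followed by Stab1 with 183 ± 11.1, Gas6 with 178 ± 76.6 and Cd36 with 170.0 ± 21.7, whose ranges overlapped one another. Msr1 (35.4 ± 31.1), Trem2 (28.6 ± 11.8), Mertk (21.5 ± 9.65) and Axl (12.8 ± 6.65 CPM per kilobase) followed, each overlapping its neighbour. Cd163 lay far below at 0.299 ± 0.025 CPM per kilobase and Timd4 was listed at 0. With RA, Cd36 stood at 242 ± 11.2 CPM per kilobase, above Stab1 (174 ± 34.3) in every library, and the order of the other members was kept.

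**Figure D1:**
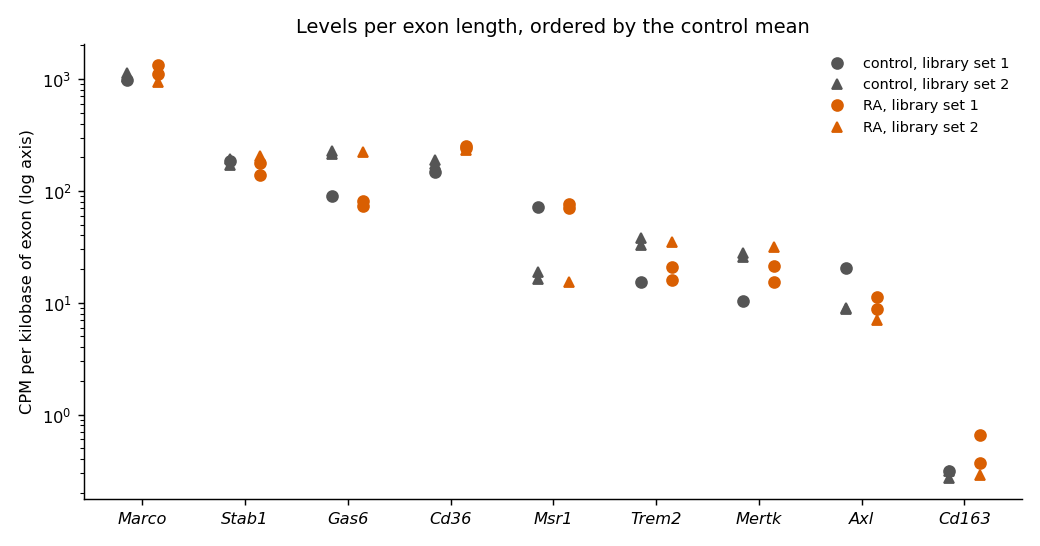
Level of the 9 tested members per kilobase of exon (CPM per kilobase, log axis), ordered by the control mean, with 1 point per library (grey control, orange RA, circles set 1, triangles set 2). Marco lies between 946 and 1345 CPM per kilobase in all 6 libraries, while Msr1, Gas6, Trem2 and Mertk split by symbol shape more than by colour.

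None of the 9 tested members was called. A call needed both a difference of 1.5-fold or more and an adjusted p under 0.05. Over all tested genes edgeR called 6, or 0.0433%, so the absence of a call among 9 genes is no result about them. At an unadjusted p under 0.05, 1 member was higher (Cd36) and 0 were lower, with 2.89% of all tested genes higher and 2.36% lower past that limit (5.25% in all). Cd36 was also the only member with RA libraries that did not overlap the controls, which was true of 12.6% of all tested genes, with RA above control in 5.71%. Of the 9 members 4 had a negative log2 fold change and 5 a positive one, against 52.7% negative over all tested genes, and their median of 0.09 lay beside -0.02 over all tested genes. With DESeq2, 0 members were called and 1 was higher at an unadjusted p under 0.05, beside 0.983% of its genes called and 5.94% past the unadjusted limit, 3.43% in the higher direction. With the replicate number as a block 0 members were called, beside 0.0289% of all tested genes.

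**Figure D2:**
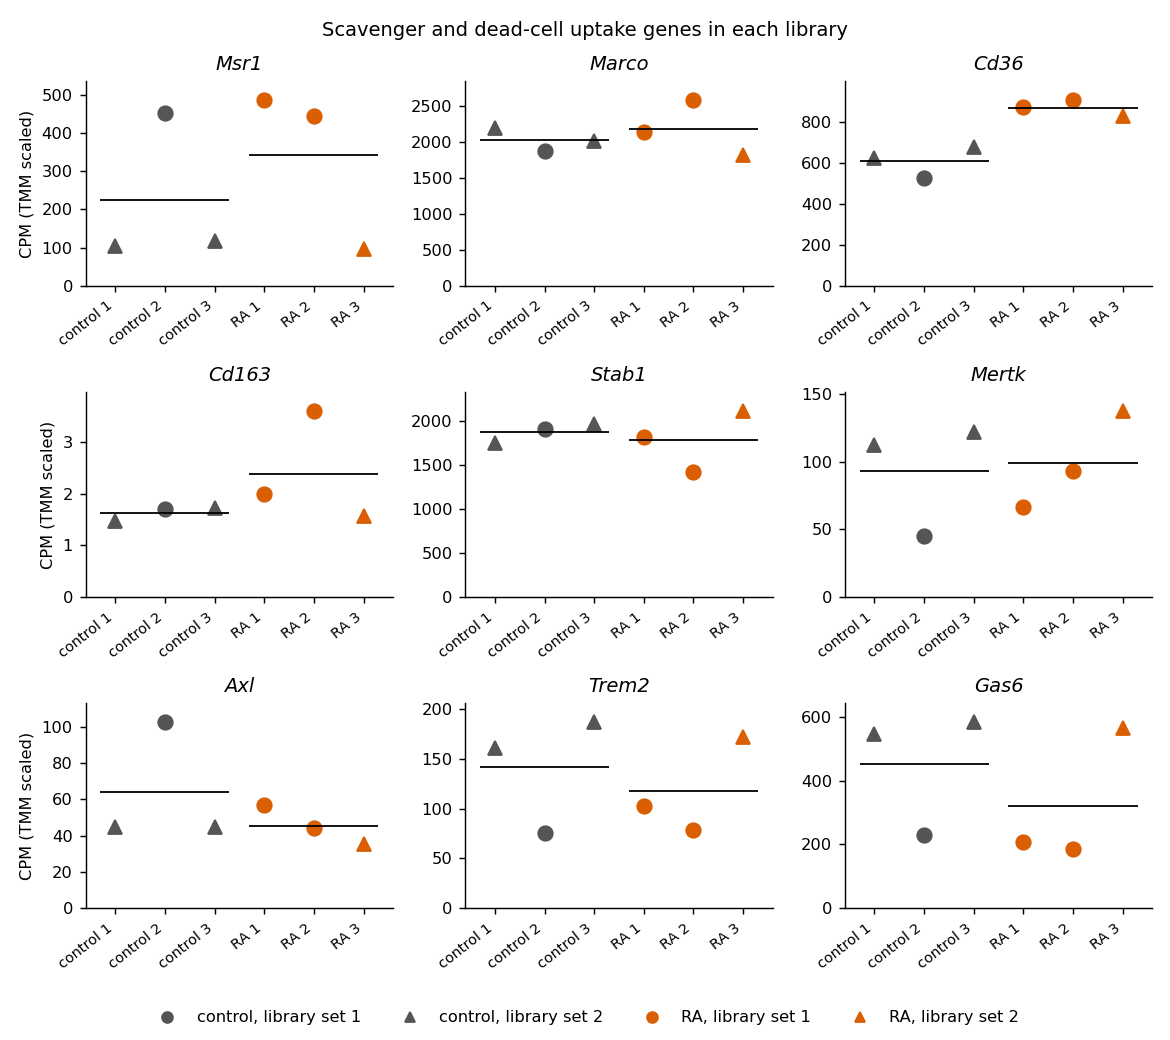
CPM of each of the 9 tested members in each library (linear axes from 0, 1 panel per gene, grey control, orange RA, circles set 1, triangles set 2, bars the group means). Cd36 is the panel in which all 3 RA points lie above all 3 control points, while in Msr1 and Gas6 control 2 lies with RA 1 and RA 2.

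Cd36 is a class B scavenger receptor that takes up oxidized lipoproteins and long-chain fatty acids and helps to recognise dying cells. It is encoded at chr5:17781690-17888801 (GRCm38, minus strand). The control libraries 1 to 3 held 626, 526 and 679.6 CPM, and the RA libraries 872.5, 909 and 829 CPM. Every RA library was above every control library, and the lowest RA value came from set 2, whose 2 controls were the highest controls. The means were 610.4 ± 78.0 and 870.2 ± 40.0 CPM, a log2 fold change of 0.51 (SE 0.14) or 1.43-fold. In edgeR the unadjusted p was 0.00949 and the adjusted p was 0.638. The difference was 0.76 in set 1 and 0.35 in set 2 on the log2 scale, and 0.55 (SE 0.11) with the set as a covariate (adjusted p = 0.0645). DESeq2 gave an adjusted p of 0.0497 for a log2 fold change of 0.52, so Cd36 passed the adjusted limit in that tool alone and stayed under 1.5-fold in both. Leaving out any 1 library gave values between 0.43 and 0.59.

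The promoter of Cd36 is shown because it belongs to the member that was higher in every RA library. It runs from 250 bases before to 50 bases after the RefSeq start (GRCm38.p6, chr5:17835847-17836146, minus strand), a start that lies inside the longer annotated gene. Capitals mark GGTCA on either strand, the core that retinoid and related nuclear receptors read as paired repeats.
Cd36: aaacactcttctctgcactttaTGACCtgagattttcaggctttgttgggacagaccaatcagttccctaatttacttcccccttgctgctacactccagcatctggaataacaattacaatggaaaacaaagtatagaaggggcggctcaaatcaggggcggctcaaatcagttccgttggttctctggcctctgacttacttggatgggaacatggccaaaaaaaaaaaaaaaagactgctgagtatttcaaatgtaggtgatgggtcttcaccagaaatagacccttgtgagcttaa
The letters GGTCA occur once in it, on the other strand. A pair of GGTCA in direct repeat spaced by 1, 2 or 5 bases, searched on both strands, was found in 0 of the 9 member promoters that RefSeq's table holds (Msr1 has none there), and in 0.0791%, 0.222% and 0.0761% of 32851 promoters of the same length. A single GGTCA, which was added to the search later and is part of each pair, was found in 8 of 9 member promoters and in 40.5% of all. A match in so short a window is a description only.

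Marco, a collagenous receptor for unopsonised bacteria and inhaled particles, was the most abundant member. It lies at chr1:120474538-120505024 (GRCm38, minus strand). The control libraries held 2189, 1875 and 2019 CPM and the RA libraries 2140, 2590 and 1821 CPM. The groups overlapped, and the highest and the lowest values were both RA libraries. The means of 2028 ± 157 and 2184 ± 387 CPM gave a log2 fold change of 0.11 (SE 0.18, edgeR adjusted p = 0.883). The difference was 0.33 in set 1 and -0.21 in set 2, and 0.06 (SE 0.15, adjusted p = 0.848) with the set as a covariate, and without RA 2 it was -0.03 over the remaining libraries. In every library Marco lay between the 99.8th and 99.9th percentile of the tested genes by level per length.

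Stab1 (stabilin-1), a receptor that clears modified lipoproteins and matrix fragments and can bind phosphatidylserine, lies at chr14:31139013-31168641 (GRCm38, minus strand). Its control values of 1753, 1911 and 1974 CPM overlapped the RA values of 1820, 1420 and 2122 CPM. Again 1 RA library was the lowest and another the highest. The log2 fold change was -0.07 (SE 0.18, edgeR adjusted p = 0.926), with -0.25 in set 1 and 0.19 in set 2. It was -0.03 (SE 0.14, adjusted p = 0.940) with the set as a covariate and 0.07 without RA 2. Stab1 shares 112 of its 10288 exon bases with Nt5dc2 on the opposite strand, and whether the counting used strand was not given in the sources used here. Nt5dc2 reached at most 88.8 CPM.

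Msr1, the class A receptor for modified lipoproteins, differed most between libraries relative to its mean among the tested members. It lies at chr8:39581685-39642673 (GRCm38, minus strand). The control libraries held 104, 452 and 119 CPM and the RA libraries 487.5, 444 and 97.4 CPM. The values fell into a high group of control 2, RA 1 and RA 2 and a low group of control 1, control 3 and RA 3, which are the library sets, so that treatment groups overlapped fully. The group means of 225 ± 197 and 343 ± 214 CPM gave a log2 fold change of 0.61 (SE 0.76, edgeR adjusted p = 0.845). Within the sets the difference was 0.04 and -0.19, and with the set as a covariate it was -0.07 (SE 0.10, adjusted p = 0.733). Without control 2 the pooled value was 1.64.

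Cd163, the receptor for haemoglobin bound to haptoglobin, was near the lower limit of what these libraries measure. It lies at chr6:124304656-124330527 (GRCm38, plus strand). The control libraries held 21, 32 and 25 counts and the RA libraries 36, 57 and 23 counts, or 1.47, 1.70 and 1.72 against 2.00, 3.61 and 1.57 CPM. RA 2 was the highest and RA 3 lay among the controls. The log2 fold change was 0.55 (SE 0.36, edgeR adjusted p = 0.795), with 0.63 in set 1 and -0.02 in set 2, and 0.38 (SE 0.35, adjusted p = 0.606) with the set as a covariate. The pooled value was 0.13 without RA 2 and 0.77 without RA 3. At these counts a change of this size was not separable from the spread between libraries.

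Among the receptors for dying cells, Mertk and Axl are TAM kinases, of which Mertk is typical of resting macrophages and Axl of inflamed or stromal cells. Mertk lies at chr2:128698956-128802894 (GRCm38, plus strand) and Axl at chr7:25757273-25788705 (minus strand). Mertk stood at 112, 45.1 and 122 CPM in control and 66.8, 92.9 and 138 CPM in RA libraries. The groups overlapped, with control 2 lowest and RA 3 highest, and the pooled log2 fold change was 0.09 (SE 0.42, edgeR adjusted p = 0.961). Within the sets the RA libraries were higher by 0.80 and 0.24 on the log2 scale. With the set as a covariate the difference was 0.52 (SE 0.18), at an unadjusted p of 0.0191 and an adjusted p of 0.243 in edgeR. Each set holds a single library of 1 group, and the pooled value of Mertk was -0.23 without control 2 and -0.22 without RA 3.

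Axl moved the other way within the sets. It stood at 44.6, 103 and 45.0 CPM in control and 57.1, 44.4 and 35.1 CPM in RA libraries. Control 2 was the highest library, and the others lay close together with the groups overlapping. The pooled log2 fold change was -0.50 (SE 0.37, edgeR adjusted p = 0.803), the values within the sets were -1.03 and -0.35, and with the set as a covariate it was -0.70 (SE 0.16, unadjusted p = 0.0032, adjusted p = 0.102). Without control 2 the pooled value was 0.04. The summed stromal markers were also highest in control 2, with 4447 CPM against 1695 to 3466 CPM in the other libraries, while the stromal marker Pdgfrb was at 60.3, 125.5 and 62.4 CPM in control and 139.9, 107 and 72.7 CPM in RA libraries, and so highest in RA 1. Their part in the Axl value was not tested.

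With the set as a covariate, 2 members were higher (Cd36 and Mertk) and 1 was lower (Axl) at an unadjusted p under 0.05, beside 6.7% and 8.44% of all tested genes (15.1% in all), and 0 were called, beside 1.54%. Cd36 and Mertk were higher with RA in both sets, as were 30.9% of all tested genes, and Axl was lower in both, as were 35% of them. Per kilobase, Mertk exceeded Axl in 5 of 6 libraries. The ratio was 2.92, 0.509 and 3.14 in control and 1.36, 2.43 and 4.55 in RA libraries, with control 2 the one in which Axl was higher.

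**Figure D3:**
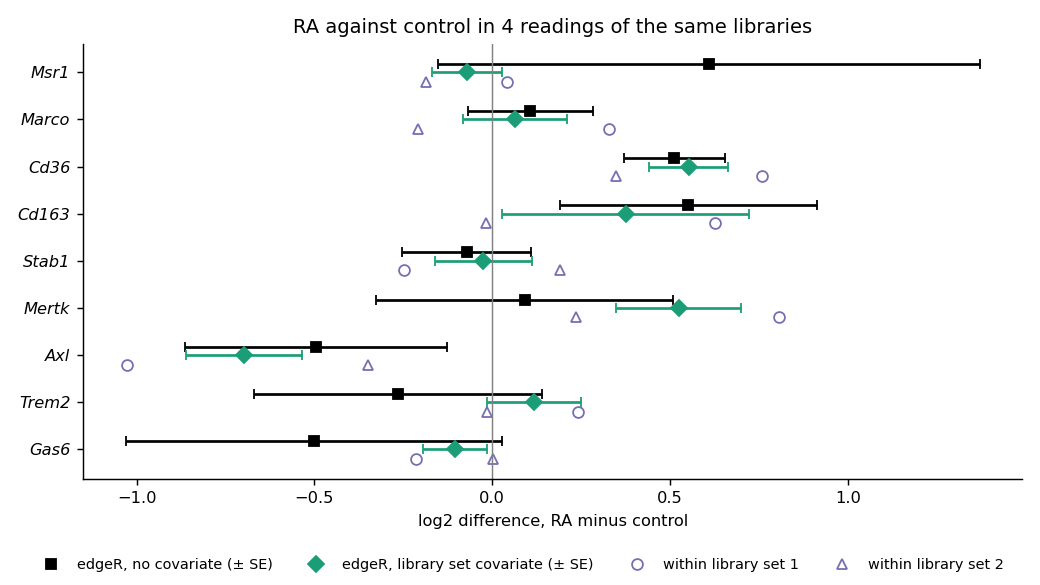
Log2 difference between RA and control for each tested member, pooled over 6 libraries (edgeR, bars show 1 SE), with the library set as a covariate (bars show 1 SE), and within set 1 and set 2 (no error can be given). Cd36 lies right of 0 in all 4 values, Mertk is at 0.09 pooled and 0.52 with the covariate, and Msr1 moves from 0.61 to -0.07.

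Trem2, a lipid receptor that signals through Tyrobp and marks lipid-handling macrophages, lies at chr17:48346401-48354147 (GRCm38, plus strand). It stood at 161, 75.8 and 187 CPM in control and 102.5, 78.5 and 172 CPM in RA libraries. The 3 libraries of set 2 were the highest, and control 2 was the lowest. The log2 fold change was -0.27 (SE 0.41, edgeR adjusted p = 0.870), and it was -0.64 without RA 3 and -0.01 without control 3. It was 0.24 in set 1 and -0.02 in set 2, and 0.12 (SE 0.13, adjusted p = 0.675) with the set as a covariate.

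Timd4, which binds phosphatidylserine directly and marks long-lived resident macrophages, had 0 counts in the 3 control libraries and 0, 2 and 1 counts in the RA libraries. It lies at chr11:46810800-46844332 (GRCm38, plus strand). A floor of 3 counts in a library corresponded to between 0.16 and 0.21 CPM here, and all 6 libraries were under it. No fold is given, and expression below this level was not detectable at this depth. Such floors reflect counting error alone, and they may be too low, because PCR copies are not separate molecules.

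Gas6, the ligand that links Mertk and Axl to phosphatidylserine, was the member after Msr1 that followed the library sets most. It lies at chr8:13465374-13494490 (GRCm38, minus strand). The control libraries held 546, 228.5 and 584 CPM and the RA libraries 209, 185 and 565 CPM. Set 1 held the 3 low values and set 2 the 3 high ones, so the groups overlapped. The means of 453 ± 195 and 320 ± 213 CPM gave a log2 fold change of -0.50 (SE 0.53, edgeR adjusted p = 0.830). It was -0.22 in set 1 and 0.00 in set 2, and -0.11 (SE 0.09, adjusted p = 0.578) with the set as a covariate. The pooled value was -1.20 without RA 3 and -0.23 without RA 2. Its ratio to Mertk per kilobase was 8.28, 8.63 and 8.15 in control and 5.32, 3.39 and 6.98 in RA libraries, so that all 3 RA ratios were below all 3 control ratios. This comparison was chosen after the levels were seen and was given no test. The share of other gene pairs whose ratios part in this way was not computed. Among single tested genes, 12.6% had RA libraries that did not overlap the controls.

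Msr1, Mertk, Trem2 and Gas6 differed more between the library sets, by 2.12, -0.92, -1.03 and -1.45 on the log2 scale (set 1 minus set 2), than between treatments. Levels of the sets did not overlap in 4 of the 9 tested members (Msr1 above in set 1, and Mertk, Trem2 and Gas6 below), beside 47.7% of all tested genes, 23.4% above in set 1 and 24.4% below. The sets were at least 2-fold apart in 3 members, beside 10.2% of all tested genes. Msr1 was 4.33-fold higher in set 1, while Gas6 was 2.72-fold, Trem2 2.03-fold and Mertk 1.82-fold higher in set 2. On the log2 scale set 1 differed from set 2 by 0.08 in Cd36, 0.12 in Marco and -0.19 in Stab1, and by 0.63 in Axl and 0.51 in Cd163, with the sets overlapping in all 5. The summed macrophage markers were 21210, 20110 and 21520 CPM in set 1 and 20610, 22240 and 21380 CPM in set 2, ranges that overlapped. Of the 12 single markers, however, 7 were below in set 1 without overlap, among them Ptprc (474, 463 and 564 CPM against 661, 715.5 and 705 CPM), and 2 were above. Of the 11 tested stromal markers 4 were above in set 1 without overlap and 0 below, among them Pdgfra, which differed by 1.19 on the log2 scale. The part of these markers in the set levels of Msr1, Mertk, Trem2 and Gas6 was not tested.

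**Figure D4:**
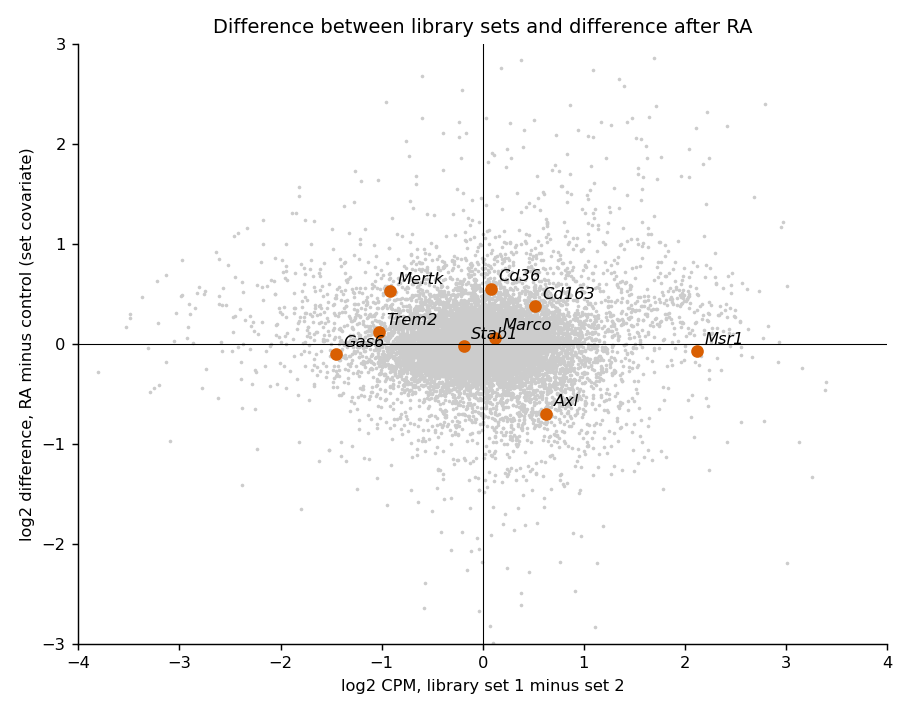
Log2 difference between set 1 and set 2 (horizontal) against the log2 fold change of RA over control (vertical, edgeR with the library set as a covariate) for all tested genes (grey, 30 of 13842 lie outside the axes) and for the 9 tested members (named points). Msr1 lies at 2.12 and Gas6 at -1.45 on the horizontal axis, while every member lies between -0.70 (Axl) and 0.55 (Cd36) on the vertical axis.

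Genes were also sought whose levels followed those of a member most closely over the 6 libraries, by the root mean square difference of centred log2 CPM, and this is a description over few libraries. Nearest to Msr1 were Atp8b4 (0.0961) and Phf19 (0.129), and nearest to Mertk were Fcgr4 (0.0536), an activating Fc receptor, and Ap1s2 (0.0646). Axl was followed most closely by the heparan sulphate proteoglycan Sdc4 (0.0745) and by Mxra8 (0.0917), and Trem2 by Col9a3 (0.0621) and Susd3 (0.0637). Gas6 had Gm10676 (0.0505) and Hist3h2a (0.0529), Cd36 had Zfp677 (0.0582) and Gm44901 (0.0762), and Cd163 had Uqcrb (0.0735) and mt-Nd5 (0.0789) as nearest genes. For Marco they were Rbm43 (0.022) and Trim13 (0.0327), and for Stab1 Dnhd1 (0.0108) and Pih1d1 (0.0477).

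The promoters of the 3 members that were lower in set 1 are shown so that they can be compared with that of Cd36. They have the same length and source, with capitals again marking GGTCA on either strand and, in Trem2, TGANTCA, where N is any base. That pattern is wider than the letters read by AP-1. Their positions in GRCm38.p6 are chr2:128698665-128698964 (plus strand) for Mertk, chr17:48346151-48346450 (plus strand) for Trem2 and chr8:13494486-13494785 (minus strand) for Gas6.
Mertk: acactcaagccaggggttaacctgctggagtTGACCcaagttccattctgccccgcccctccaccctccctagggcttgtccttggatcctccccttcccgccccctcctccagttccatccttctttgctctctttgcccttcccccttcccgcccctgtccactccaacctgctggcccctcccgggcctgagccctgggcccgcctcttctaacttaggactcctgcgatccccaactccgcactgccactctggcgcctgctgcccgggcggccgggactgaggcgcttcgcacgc
Trem2: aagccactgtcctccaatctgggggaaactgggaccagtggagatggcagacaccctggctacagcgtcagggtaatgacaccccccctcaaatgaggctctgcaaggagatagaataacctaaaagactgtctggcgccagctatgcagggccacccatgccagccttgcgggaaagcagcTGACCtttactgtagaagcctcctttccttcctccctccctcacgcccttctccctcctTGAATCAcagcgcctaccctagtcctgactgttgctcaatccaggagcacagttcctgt
Gas6: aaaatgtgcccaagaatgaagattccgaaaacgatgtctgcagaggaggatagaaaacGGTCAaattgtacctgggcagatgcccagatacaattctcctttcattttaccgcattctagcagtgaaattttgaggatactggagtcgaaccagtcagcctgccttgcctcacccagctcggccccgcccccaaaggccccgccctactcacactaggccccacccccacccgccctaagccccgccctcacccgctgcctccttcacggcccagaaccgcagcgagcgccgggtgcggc
TGANTCA was found in 1 of 9 member promoters (Trem2, as TGAATCA starting 9 bases before the start) and in 7.81% of all promoters searched. With any base allowed at N, this match and this share cannot be read as AP-1 sites. GAGGAAGT, the letters read by the macrophage factor PU.1, was found in 0 of 9 and in 3.2% of all, on either strand. These letters do not overlap with GGTCA in the motif as searched, and their absence from this window says nothing about the factors.

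The other genes of scavenging and dead-cell uptake were taken from a list of 82, grouped by role, of which 78 were tested. None was called by edgeR, 6 were higher and 3 lower at an unadjusted p under 0.05 (beside 2.89% and 2.36% of all tested genes), and their median log2 fold change was -0.11 beside -0.02 over all tested genes. Of the 78, 48 were lower and 30 higher, beside 52.7% lower over all tested genes. With the set as a covariate 10 were higher and 12 lower at an unadjusted p under 0.05, beside 6.7% and 8.44% of all tested genes. In that fit 1 was called higher and 2 lower, beside 0.744% and 0.795% of all tested genes, and DESeq2 called 1 higher, beside 0.983% called in all. The smallest adjusted p among them was 0.450 (Gulp1) in the main comparison.

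Of the other scavenger receptors, 8 of 13 tested were lower and 5 higher. Clec7a (dectin-1), the receptor for fungal beta-glucan, was called with the set as a covariate and is named for that reason, after its values were seen. It stood at 6.23, 2.55 and 7.36 CPM in control and 9.28, 10.1 and 24.4 CPM in RA libraries. All RA values were above all controls, and the difference was similar in both sets at 1.87 and 1.83 on the log2 scale. The pooled log2 fold change was 1.44 (SE 0.53, edgeR adjusted p = 0.795) and that with the covariate was 1.88 (adjusted p = 0.0022). Without RA 3, its highest library, the pooled value was 0.85. Colec12, a collagenous receptor for modified lipoproteins and glycans, stood at 65.8, 67.7 and 88.9 CPM in control and 98.9, 94.3 and 103 CPM in RA libraries, a log2 fold change of 0.41 (SE 0.15, edgeR unadjusted p = 0.0264). Olr1, a receptor for oxidized lipoproteins, was low at 0.781 CPM in control and 1.80 CPM in RA libraries on average, and it is named after its values were seen, at a log2 fold change of 1.22 (edgeR adjusted p = 0.795) and 1.68 with the covariate (adjusted p = 0.0938). Scarf1, which binds modified lipoproteins and C1q-coated cells, had a log2 fold change of -0.32 (SE 0.11, edgeR unadjusted p = 0.0275) with all RA libraries below all controls.

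The other receptors for dying cells numbered 10, of which 7 were tested, with 4 lower and 3 higher. Tyro3, the third TAM receptor, stood at 3.22, 5.05 and 3.16 CPM in control and 2.22, 1.90 and 1.23 CPM in RA libraries. All RA values were below all controls. The log2 fold change was -1.09 (SE 0.33, edgeR adjusted p = 0.746), the within-set values were -1.25 and -1.29, and with the set as a covariate it was called at -1.32 (adjusted p = 0.0295). Per kilobase it stood between 0.198 and 0.815 CPM, far under Mertk and Axl in every library. Itgb3, the integrin subunit that pairs with Itgav to bind bridged dying cells, had a log2 fold change of -0.76 (SE 0.32, edgeR unadjusted p = 0.0473).

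Among the 9 bridging molecules 7 were lower and 2 higher, with a median of -0.23 and 0 past the unadjusted limit. Thbs1 (thrombospondin-1), a ligand of Cd36 that links dying cells to it, was called with the set as a covariate and was named after its values were seen. It stood at 1210, 2367 and 1323 CPM in control and 1561, 1281 and 755 CPM in RA libraries, with the groups overlapping and control 2 highest. The pooled log2 fold change was -0.45 (SE 0.36, edgeR adjusted p = 0.804), the within-set values were -0.74 and -0.75, and that with the covariate was -0.74 (adjusted p = 0.0167). Without control 2 the pooled value was -0.06. Edil3, which joins phosphatidylserine to integrins, was at -0.39 (SE 0.22) and C1qa, a chain of complement C1q, at -0.28 (SE 0.23), which were -0.55 and -0.11 with the covariate.

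The 18 adaptors and signalling genes held 12 lower and 6 higher. Gulp1, an adaptor that binds the tails of engulfment receptors such as Stab1 and Lrp1, had the smallest p of the list. It stood at 3.22, 5.00 and 4.13 CPM in control and 9.51, 9.45 and 6.62 CPM in RA libraries. All RA values were above all controls, with a log2 fold change of 1.05 (SE 0.25, edgeR adjusted p = 0.450). DESeq2 called it (adjusted p = 0.0454), and with the set as a covariate edgeR gave an adjusted p of 0.0521. Vav1, an exchange factor for Rac in phagocytosis, was at -0.29 (SE 0.14, edgeR unadjusted p = 0.0841), again with no overlap between groups.

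The find-me, eat-me and do-not-eat-me genes were 5 lower and 5 higher. Cd24a, a do-not-eat-me surface protein, was at 1.35 (SE 0.56, edgeR unadjusted p = 0.0491), with overlapping groups. It was 0.63 in set 1 and 1.66 in set 2, and the pooled value was 2.25 without control 2. Of the sheddases that cut Mertk and Trem2 from the surface, Adam10 stood at 165, 205 and 174 CPM in control and 296, 281 and 189 CPM in RA libraries. Its log2 fold change was 0.49 (SE 0.20, edgeR unadjusted p = 0.0422), while Adam17 was at 0.09 (SE 0.13). The RA value of Adam10 in set 2 lay below control 2 of set 1 but above control 1 and control 3 of its own set. The difference was 0.49 in set 1 and 0.16 in set 2. With the set as a covariate it was 0.33 (edgeR unadjusted p = 0.0113, adjusted p = 0.197).

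The remaining roles gave no gene past the unadjusted limit in the pooled fit. With the set as a covariate, Abca1 (0.24, unadjusted p = 0.023) among the nuclear receptor targets and Hp (-0.43, unadjusted p = 0.0149) among the haemoglobin genes were among those that passed it in edgeR, and they are named for that after their values were seen. Their pooled values were -0.03 and 0.03. Of 7 corpse-processing genes 5 were lower and 2 higher, with the LC3-associated phagocytosis genes Atg5 at 0.12 (SE 0.13) and Rubcn at -0.28 (SE 0.30), the latter at -0.02 with the set as a covariate. Of 9 nuclear receptors and their targets, which control uptake genes in lipid-loaded cells, 7 were lower and 2 higher. Nr1h2 was at -0.33 (SE 0.20) and Ppard at -0.38 (SE 0.27), or -0.20 and -0.19 with the set as a covariate. In 7 of the 9 genes of this role the levels of set 1 were below those of set 2 without overlap, beside 24.4% of all tested genes. The 3 genes that handle haemoglobin after Cd163 uptake had positive values, with the haem oxygenase Hmox1 at 0.28 (SE 0.25) and Blvrb, which reduces biliverdin, at 0.04 (SE 0.21). With the set as a covariate these were 0.07 and -0.13.

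**Figure D5:**
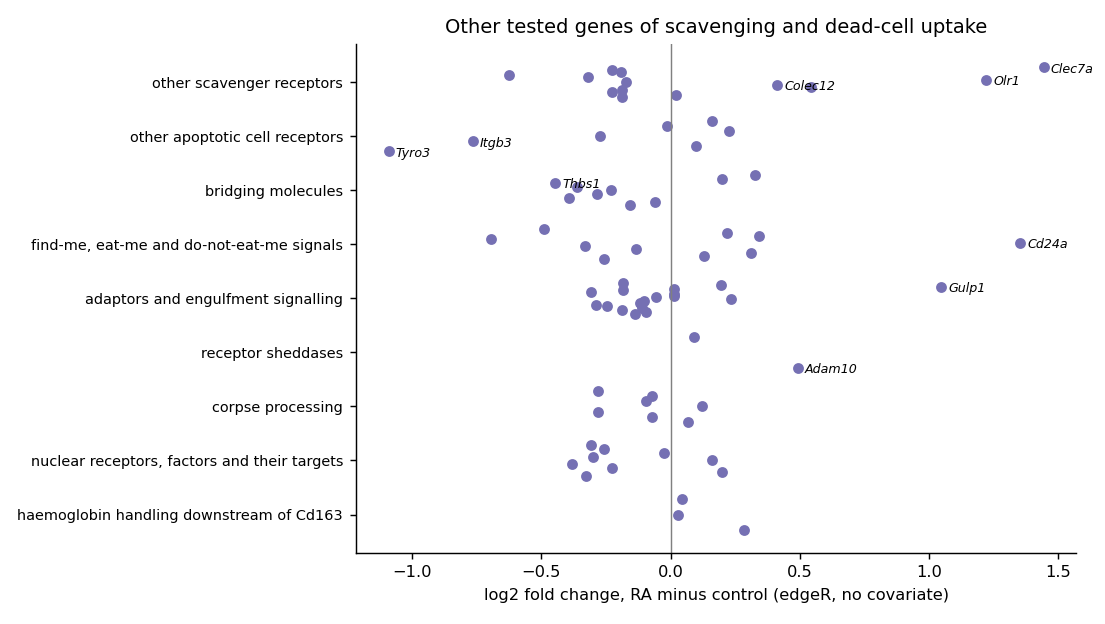
Log2 fold change of RA over control (edgeR, no covariate) for the 78 other tested genes of scavenging and dead-cell uptake, 1 point per gene in a row per role, with those genes of the text labelled that lie farthest from 0. Clec7a, Cd24a, Gulp1 and Olr1 lie right of 1, Tyro3 lies left of -1, and none passed the adjusted limit.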

How the data were processed

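RNA of 6 mouse BMSC cultures was read, 3 control and 3 treated with RA. The authors deposited 1 table per library of raw counts of reads per gene, not normalized. The labels name Bowtie2 2.2.3 and mm10, while the counting program, annotation and strand setting were not given in the sources used here. Gene models came from GENCODE M21 (GRCm38, the build mm10 names), which held all 25722 identifiers, and promoters from RefSeq (GRCm38.p6).

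Counts were analysed in R 4.3.3 with edgeR 4.0.16 (TMM scaling, filterByExpr, quasi-likelihood F test of RA against control without covariates). A call needed a change of 1.5-fold or more and a p under 0.05 after Benjamini-Hochberg adjustment over all 13842 tested genes. The SE was derived from the log2 fold change and F. Log2 CPM used a prior count of 2. Levels per length are CPM per kilobase of merged exons, and within-set values are differences of log2 CPM. The fit was first run on simulated data in which the library sets did not differ in mean, so that run did not cover the set difference. Given totals from 14737636 to 18511905 counts, counting error is small for all members but Cd163 and Timd4.

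Groups and replicate numbers came from the labels. The members, gene lists, markers, tests and library sets were chosen with earlier results of these data known. Named genes were the members, Cyp26b1, any called and the 2 of smallest p in each list, 6 markers, and the 2 genes nearest to each member in pattern. Clec7a, Thbs1, Olr1, Abca1, Hp, Lepr, Ly6a, Mmp9, Acp5, Ctsk, Ocstamp and Pf4 were added after their values were seen, and some genes are not reported here. Alternatives were DESeq2 1.42.0, other scaling, other filters, a replicate block, the library set as a covariate, and leaving out each library. The 3 libraries of a group differed by more than sampling noise (chi-square per degree of freedom 4.56 or higher) and were kept separate. Protein sequences and the study's other experiments were not analysed here.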

Additional observations from a re-analysis of the deposited data

How the results depend on the processing

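The number of members called stayed at 0 under each alternative, and the number lower after RA was 4 of 9, or 5 without RA 3, though with the set as a covariate Msr1 was among them and Trem2 was not. Over all genes 6 were called (5 higher, 1 lower), against 136 (98 higher, 38 lower) with DESeq2, 20 (17 and 3) without a filter, and 213 (103 and 110) once the set was a covariate. Scaling by library size called 6 higher and 0 lower. Leaving out 1 library gave 0 to 6 calls, of which 0 to 6 were higher and 0 lower. Of the pathway genes 0 were called, against 1 with DESeq2 and 3 with the set as a covariate. The cause of these shifts was not tested. The set as a covariate reversed Msr1 (-0.0705), Trem2 (0.12), Blvrb (-0.13), Abca1 (0.24), Acp5 (0.0165), Hp (-0.432) and Ptprc (0.0748), and library size scaling reversed Abca1 (0.0147). Log2 fold changes that turned sign without 1 library ranged from -0.23 to 0.33 in Mertk, -0.70 to 0.0371 in Axl, -0.0336 to 0.22 in Marco, -0.22 to 0.0694 in Stab1, -0.066 to 0.23 in Blvrb, -0.27 to 0.0637 in Ptprc, -0.403 to 0.185 in Abca1, -0.34 to 1.12 in Hp, -0.719 to 0.113 in Ctsk and -0.0936 to 0.18 in Csf1r. With 1 library out, a group of 2 remained and the spread was pooled over both groups. The median over all tested genes shifted by under 0.1 on the log2 scale with each scaling.

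The labels number the libraries 1 to 3 in each group without saying what a number shares. Deviations of same-numbered libraries correlated at -0.51, 0.34 and 0.57 over genes, and 1 of 3 control libraries correlated best with its own number, so the numbers were not taken as pairs. With the replicate block 4 genes were called (4 higher, 0 lower), 0 members and 0 pathway genes, with Cd36 at 0.52 (edgeR adjusted p = 0.714) and Gas6 at -0.57 (adjusted p = 0.714). Depth limits Cd163, at 21 to 57 counts, and Timd4, at 0 to 2 counts.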
